A study of Rattus norvegicus with 34 samples.

Results

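*Il1b*, *Il18*, *Tnf*, and *Nos2* are 4 pro-inflammatory mediators among the 44 specific genes that were measured in rat retina by TaqMan microfluidic cards. They were chosen by name, with earlier results of these data known, and are described gene by gene. RNA was taken from the whole retina of single rats at 9 weeks of age, and 23 rats were analyzed. The SD group comprised 6 uninjected Sprague Dawley rats, the control strain. The PKD group comprised 6 uninjected rats of the line PKD2(HA-1/703-CMV-247), which carry a transgene for a truncated polycystin-2. The PKD + Clodronate group (n = 5) and the PKD + Controlliposomes group (n = 6) were rats of the same line that had received 3 µl into the vitreous at 4 and 8 weeks of age. The injected agents were liposomes loaded with clodronate, a bisphosphonate that kills the phagocytes which take it up, or liposomes without it. All PKD rats were male and homozygous, and the transgene is driven by the CMV promoter, which is active in many cell types, so that the transgene is not limited to retinal cells. PBS-injected PKD rats and SD rats given clodronate were not analysed here, so injection, liposome, and clodronate cannot be told apart in comparisons with uninjected rats. Where the liposome groups are compared with SD rats, the line and its transgene differ as well and cannot be told apart from the treatment.

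IL-1β and IL-18, encoded by *Il1b* and *Il18*, are cytokines of the same family that are made as inactive precursors and are cut to their active forms by caspase-1 in the inflammasome. *Il1b* transcription is low in resting microglia and is induced by danger signals, whereas *Il18* is transcribed constitutively in many cell types. *Tnf* encodes tumor necrosis factor, which is released by activated microglia and macrophages and acts through receptors on glia, neurons, and endothelium. *Nos2* encodes the inducible nitric oxide synthase, which forms nitric oxide from arginine, the amino acid that arginase 1 (*Arg1*) also consumes.

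The cards gave a Cq for each well, that is, the PCR cycle at which the signal crossed its threshold. The Cq of each gene was subtracted from the mean Cq of 4 reference genes, which were 18S, *B2m*, *Mrpl19*, and *Ywhaz*. Expression is this value on a log2 scale, with the average of the SD group set to 0. The mean reference Cq of a rat lay between 15.7 and 17.2, and 57 of the 1104 wells had no Cq. The microglial and macrophage markers *Aif1*, *Itgam*, *Cd74*, *Tyrobp*, *Trem2*, *Fcgr2a*, *Fcgr3a*, and *C5ar1* were measured in every group, while the cards hold no marker of photoreceptors or neurons. The SD rat numbered 3 here stood apart from its group by *Gfap*, a marker of reactive glia, which was at 1.80 in this rat, at −0.84 to −0.055 in the other SD rats and at 2.33 or above in every PKD rat.

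None of the 4 genes had an empty well. The Cq ranged from 27.0 to 29.0 for *Il1b*, from 23.9 to 25.7 for *Il18*, from 32.5 to 34.5 for *Tnf*, and from 26.9 to 30.6 for *Nos2*. Among the wells that gave a Cq, *Tnf* had the latest median of the 44 specific genes, with 43 of them earlier, but *Chi3l3*, *Il13*, and *Retnla* gave a Cq in only 4, 6, and 3 of the 23 rats. The paper reports that its assays amplified with near full efficiency. Copy numbers are unknown, however, so these Cq values do not rank the transcripts by amount. Within groups, *Nos2* varied most among the 4 genes, with a residual SD of 0.944 log2 units over all groups, the 3rd largest of the 41 genes that could be tested. The residual SD was 0.500 for *Il1b*, 0.499 for *Tnf*, and 0.451 for *Il18*, each below the median of 0.535 over the tested genes.

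**Figure D1:**
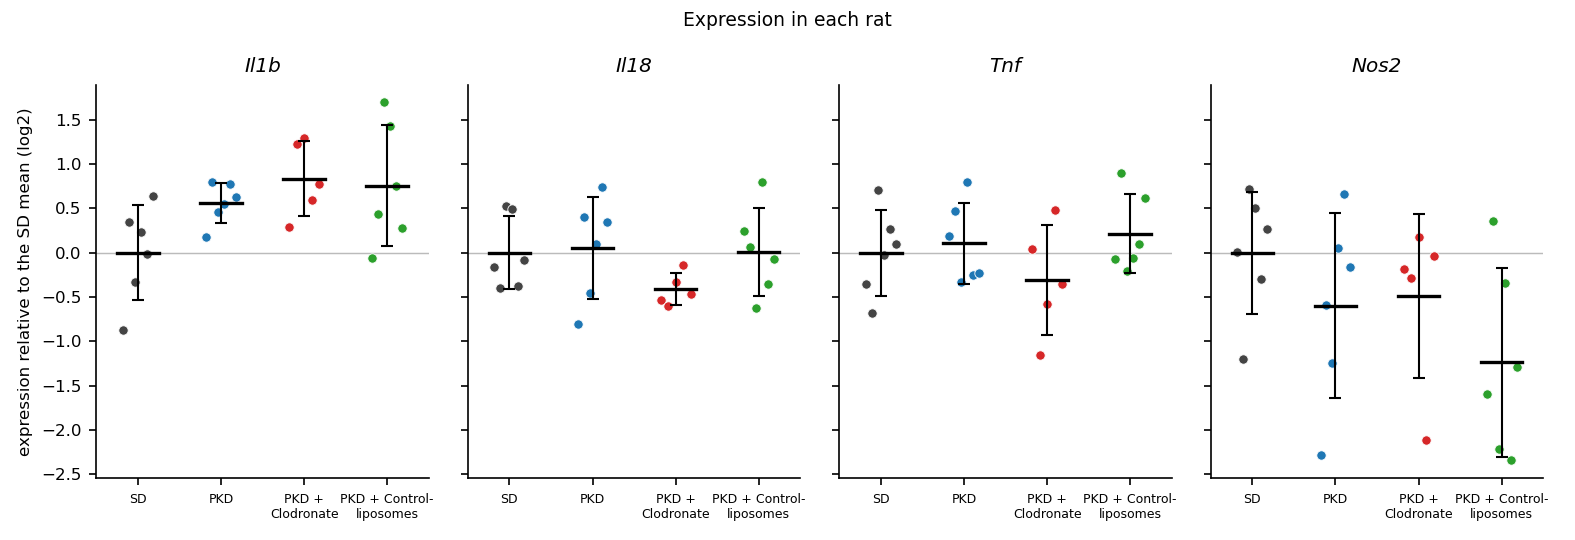
Expression of *Il1b*, *Il18*, *Tnf*, and *Nos2* in each rat, in log2 units relative to the SD mean, by group. Points are single rats, long bars are group means and whiskers are SD. *Il1b* means were 0.56, 0.83, and 0.75 in the 3 PKD groups, and *Nos2* spread from 0.36 down to −2.34 in PKD + Controlliposomes rats.

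With the 4 reference genes, *Il1b* was the only member that passed as higher than in SD rats at an adjusted p under 0.05. It did so in both liposome groups but not in uninjected PKD rats. In SD rats its expression was −0.87 in the lowest rat, 0.11 at the median and 0.64 in the highest rat, with an SD of 0.535. In uninjected PKD rats the lowest value was 0.18, the median 0.58 and the highest 0.80 (mean 0.56 ± 0.229, SD, n = 6). Every PKD rat was above the SD mean, but the groups overlapped because SD rats 2, 4, and 6 lay within the PKD range. The PKD + Clodronate rats were at 0.29, 1.22, 1.29, 0.59, and 0.77 (mean 0.83 ± 0.422, SD, n = 5). The PKD + Controlliposomes rats had a lowest value of −0.063, a median of 0.59 and a highest value of 1.69 (mean 0.75 ± 0.683, SD, n = 6). In the PKD + Clodronate group 3 of 5 rats lay above every SD rat, and in the PKD + Controlliposomes group 1 rat lay near the SD mean.

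Compared to SD rats, *Il1b* was higher by 0.83 log2 units in PKD + Clodronate rats (standard error 0.305, 95% interval 0.21 to 1.46, adjusted p = 0.0245 in limma), with 5 of 5 rats above the SD mean. The exact permutation test of the same rats gave p = 0.0195, two-sided. In PKD + Controlliposomes rats *Il1b* was higher by 0.75 (standard error 0.291, 95% interval 0.15 to 1.35, limma adjusted p = 0.0283), with 5 of 6 rats above the SD mean, and the exact permutation test gave p = 0.0628. In uninjected PKD rats the difference of 0.56 (95% interval −0.038 to 1.16) had a limma adjusted p of 0.141, while the exact permutation test gave p = 0.0346 before adjustment. *Il1b* thus passed the threshold of 0.05 in both liposome groups and not in uninjected PKD rats, but the differences between liposome-treated and uninjected PKD rats, 0.27 and 0.19, did not pass. Both calls were made relative to the 4 reference genes. The call in PKD + Controlliposomes rats was lost without *Mrpl19* or *Ywhaz* among them, and both were lost in a fit of only the compared groups. Without *B2m* among them, the differences were 1.12 in PKD + Clodronate (limma adjusted p = 0.0109) and 1.01 in PKD + Controlliposomes rats (limma adjusted p = 0.0152). With the mean of all specific genes as normalizer the differences from SD were −0.048 and −0.30 in the liposome groups. These 3 comparisons share the same 6 SD rats. The calls rested in part on SD rat 1, the lowest for *Il1b*, without which the differences were 0.66 (adjusted p = 0.0686) for PKD + Clodronate and 0.58 (adjusted p = 0.0852) for PKD + Controlliposomes. Without SD rat 3, which stood apart by *Gfap*, they were 0.77 (adjusted p = 0.0441) and 0.69 (adjusted p = 0.0525). In RNA from whole retina, a change in the number of cells that make a transcript and a change in transcript per cell cannot be told apart. This holds for this gene and for those that follow.

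With the 4 reference genes, *Nos2* was the only member that passed as lower than in SD rats, and it did so in PKD + Controlliposomes rats alone. In SD rats it was at −1.20 in the lowest rat, 0.14 at the median and 0.72 in the highest rat, with an SD of 0.689. In uninjected PKD rats it ranged from −2.29 over a median of −0.38 to 0.66 (mean −0.60 ± 1.05, SD, n = 6). In PKD + Controlliposomes rats it ranged from −2.34 over a median of −1.44 to 0.36 (mean −1.24 ± 1.06, SD, n = 6). In this last group 4 of the 6 rats lay below the lowest SD rat, and 1 lay above the SD median. The PKD + Clodronate rats were at −0.18, −0.29, 0.18, −2.12, and −0.043 (mean −0.49 ± 0.926, SD, n = 5). All but 1 of them lay within the SD range, and the exception was far below it.

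*Nos2* was lower by 1.24 log2 units in PKD + Controlliposomes than in SD rats, at a difference of −1.24 (standard error 0.497, 95% interval −2.26 to −0.21, limma adjusted p = 0.0342), with 5 of 6 rats below the SD mean. On a linear scale this was a 2.35-fold lower expression. The two-sided exact permutation test gave p = 0.0390 before and 0.0695 after adjustment. The direction was negative in each of the 14 alternatives that kept all rats and in each of the 12 fits without 1 rat. The call was lost in 4 of the 14, with the exact permutation test, an ordinary linear model, sample weights, or without *B2m* as a reference gene, and in 8 of the 12 fits (differences of −1.23 to −1.01, adjusted p up to 0.0928), among them the fit without SD rat 3, which gave −1.09 (adjusted p = 0.0746). In uninjected PKD rats the difference from SD was −0.60 (95% interval −1.62 to 0.43, adjusted p = 0.396), and in PKD + Clodronate rats it was −0.49 (95% interval −1.56 to 0.58, adjusted p = 0.396). Without the PKD + Clodronate rat at −2.12 the latter was −0.083.

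With the 4 reference genes, *Il18* showed no difference past the threshold from SD rats in any PKD group. SD rats had a lowest value of −0.40, a median of −0.12 and a highest value of 0.52. The corresponding values were −0.80, 0.22, and 0.74 in PKD rats. The PKD + Clodronate rats were at −0.53, −0.60, −0.33, −0.14, and −0.47 (mean −0.41 ± 0.182, SD, n = 5). The PKD + Controlliposomes rats were at −0.62, −0.0027, and 0.79 for the lowest, the median, and the highest. All 5 PKD + Clodronate rats lay below the SD mean, within a range of 0.459 log2 units. In that range also lay 3 SD rats, 1 PKD rat, and PKD + Controlliposomes rat 5, at −0.36. The difference from SD was −0.41 in PKD + Clodronate rats (95% interval −0.996 to 0.17, limma adjusted p = 0.234; exact permutation test, p = 0.0671). It was 0.055 (95% interval −0.50 to 0.61) in uninjected PKD rats and 0.0083 (95% interval −0.55 to 0.56) in PKD + Controlliposomes rats, and the sign of these small differences depended on the reference genes used.

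*Tnf* also did not pass in any comparison with the reference genes. The lowest, median, and highest values were −0.68, 0.036, and 0.70 in SD rats, −0.33, −0.020, and 0.79 in PKD rats and −0.21, 0.023, and 0.90 in PKD + Controlliposomes rats. The PKD + Clodronate rats were at 0.042, −1.15, −0.57, 0.48, and −0.35 (mean −0.31 ± 0.619, SD, n = 5). These 4 ranges overlapped, and the lowest *Tnf* value of all 23 rats was in the PKD + Clodronate group. The differences from SD were 0.11 (95% interval −0.49 to 0.71) in PKD, −0.31 (95% interval −0.94 to 0.32) in PKD + Clodronate and 0.21 (95% interval −0.39 to 0.81) in PKD + Controlliposomes rats, with limma adjusted p-values of 0.864, 0.363, and 0.566.

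Counted together, 0 of the 4 genes passed between PKD and SD rats in limma, where 36.6% of the 41 tested genes passed, 34.1% as higher and 2.44% as lower. None of the 4 had an unadjusted limma p under 0.05 there, which 43.9% of the tested genes had, and *Il1b* did in the exact permutation test, as given above. Between PKD + Clodronate and SD rats 1 of 4 passed, as higher, against 51.2% of the tested genes, of which 46.3% were higher and 4.88% lower. The same 51.2% had an unadjusted p under 0.05. Between PKD + Controlliposomes and SD rats 2 of 4 passed, 1 as higher and 1 as lower, against 63.4% of the tested genes (56.1% higher and 7.32% lower, or 65.9% by an unadjusted p under 0.05). In none of these comparisons did the rats of the groups separate without overlap for any of the 4 genes. Among all tested genes 14.6% separated in PKD, 22.0% in PKD + Clodronate and 29.3% in PKD + Controlliposomes compared to SD rats. Between the PKD groups the 4 genes also overlapped, and 2.44% of the tested genes separated for PKD + Clodronate and PKD, 7.32% for PKD + Controlliposomes and PKD, and 4.88% for the liposome groups.

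**Figure D2:**
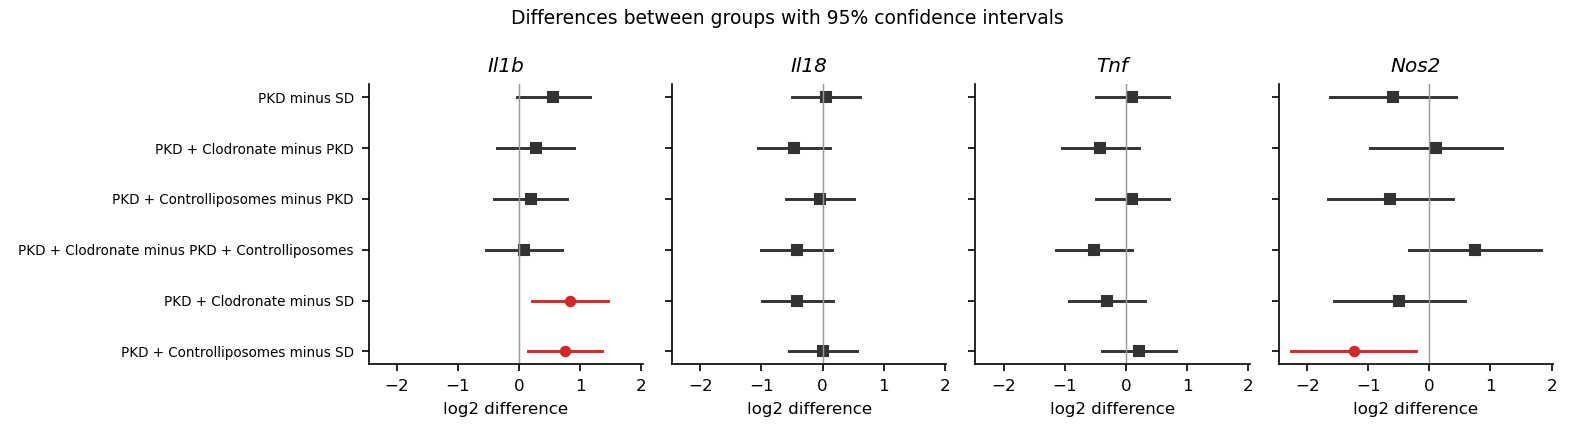
Differences between groups in log2 units for each gene, with 95% confidence intervals from limma. Red circles mark an adjusted p under 0.05 and dark squares the others. The marked differences are *Il1b* in PKD + Clodronate (0.83) and PKD + Controlliposomes (0.75) against SD rats and *Nos2* in PKD + Controlliposomes against SD rats (−1.24).

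Among the PKD groups themselves, the question was whether the liposomes, with or without clodronate, changed these mediators. Between PKD + Clodronate and uninjected PKD rats 0 of the 4 genes passed in limma, as did 0.0% of the tested genes, and none of the 4 had an unadjusted p under 0.05 in limma, as 12.2% of the tested genes had, or in the exact permutation test. *Il1b* differed by 0.27 (95% interval −0.36 to 0.90) and *Nos2* by 0.11 (95% interval −0.97 to 1.18). *Il18* differed by −0.47 (95% interval −1.05 to 0.12) and *Tnf* by −0.42 (95% interval −1.04 to 0.21). All 5 clodronate-treated rats were below the PKD mean for *Il18* and 4 of 5 for *Tnf*, but the ranges overlapped.

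Between PKD + Controlliposomes and uninjected PKD rats 0 of 4 genes passed in limma, against 2.44% of the tested genes. None of the 4 had an unadjusted p under 0.05 in limma, as 17.1% of the tested genes had, or in the exact permutation test. *Il1b*, *Il18*, and *Tnf* differed by 0.19 (95% interval −0.41 to 0.79), −0.047 (95% interval −0.60 to 0.51), and 0.11 (95% interval −0.49 to 0.70). *Nos2* differed by −0.64 (95% interval −1.66 to 0.38). Between PKD + Clodronate and PKD + Controlliposomes rats, where 4.88% of the tested genes passed, 0 of 4 did in limma, again with none under an unadjusted p of 0.05 in either test, beside 12.2% of the tested genes in limma. *Nos2* was 0.75 higher with clodronate (95% interval −0.33 to 1.82, exact permutation test, p = 0.242), or 1.15 without the rat at −2.12. *Tnf* was at −0.52 (95% interval −1.15 to 0.10), *Il18* at −0.42 (95% interval −1.004 to 0.16) and *Il1b* at 0.081 (95% interval −0.55 to 0.71).

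The cards were composed around inflammation and vasoregression and 32 of the 41 tested genes had a difference above 0 between PKD and SD rats, of which 14 passed, so the 4 genes were placed among all those tested. The median difference from SD over the 41 genes was 0.44 in PKD, 0.63 in PKD + Clodronate and 0.75 in PKD + Controlliposomes rats. *Il1b* was close to that median in each group, with 23, 24, and 20 of the other 40 genes lower. In PKD + Controlliposomes rats *Il1b* was itself the median gene. *Il18* and *Tnf* were in the lower part of the order in all 3 groups, with 7 to 9 and 8 to 13 genes lower. *Nos2* had 2 genes lower in PKD rats, 4 in PKD + Clodronate rats and 0 in PKD + Controlliposomes rats, where its difference was the lowest on the cards. It also had the lowest difference on the cards between PKD + Controlliposomes and PKD rats and the highest between PKD + Clodronate and PKD + Controlliposomes rats, although neither passed the test.

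**Figure D3:**
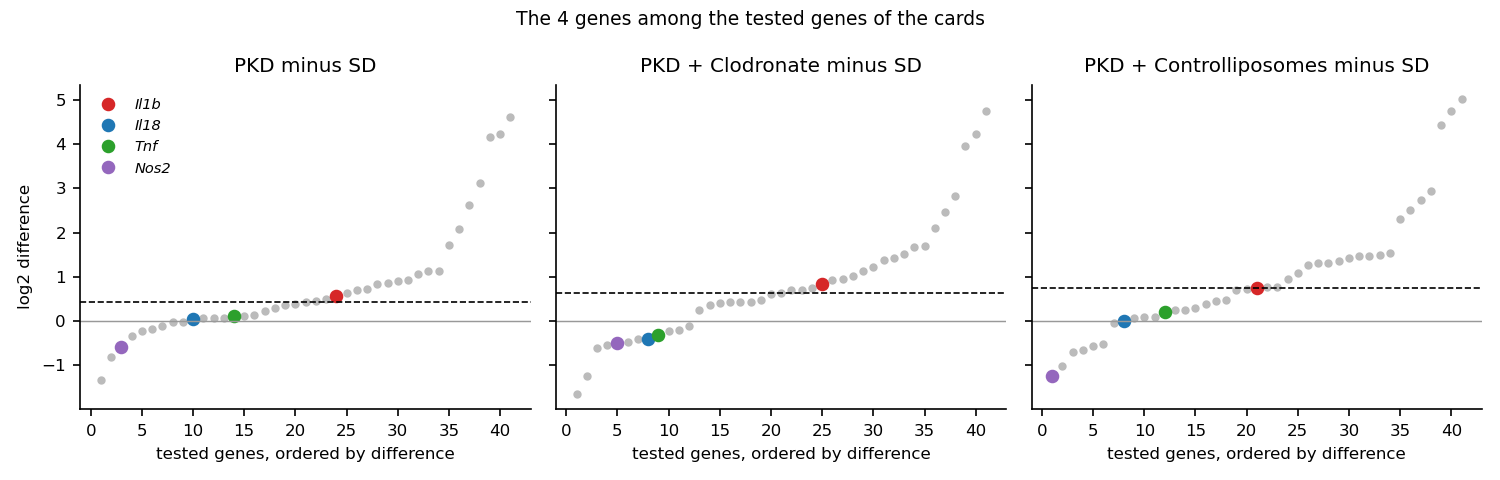
Log2 differences from SD rats of the 41 tested genes, ordered from lowest to highest in each PKD group. Colored points are the 4 genes, gray points the other genes and the dashed line is the median. *Il1b* lies near the median of 0.44, 0.63, and 0.75, and *Nos2* is the lowest gene in PKD + Controlliposomes rats.

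The differences also depended on the normalizer. Without *B2m* among the reference genes, the median difference from SD over all tested genes moved by 0.17, 0.29, and 0.26 in the 3 PKD groups. *B2m* was thus itself higher in these groups relative to the other reference genes, a difference that was not tested. With *B2m* left out, 0 of the 41 tested genes passed as lower in PKD + Controlliposomes than in SD rats, instead of 3. When each rat was normalized to the average of its specific genes, the median difference over all tested genes moved by −0.82, −0.88, and −1.05 in the 3 PKD groups, and *Il1b* was then at −0.26, −0.048, and −0.30 relative to SD, none of which passed. *Nos2* was then at −1.42, −1.37, and −2.28, each past the threshold, and so were *Il18*, at −0.77, −1.30, and −1.04 (limma adjusted p = 0.0150, 0.000283, and 0.00132), and *Tnf*, at −0.72, −1.19, and −0.84 (limma adjusted p = 0.0489, 0.00338, and 0.0216). Under this normalizer 16, 13, and 17 of the 41 tested genes passed as lower and 7, 9, and 8 as higher. The order of the 4 genes from *Il1b* at the top to *Nos2* at the bottom does not depend on the normalizer, since a normalizer shifts all genes of a rat by the same amount.

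**Figure D4:**
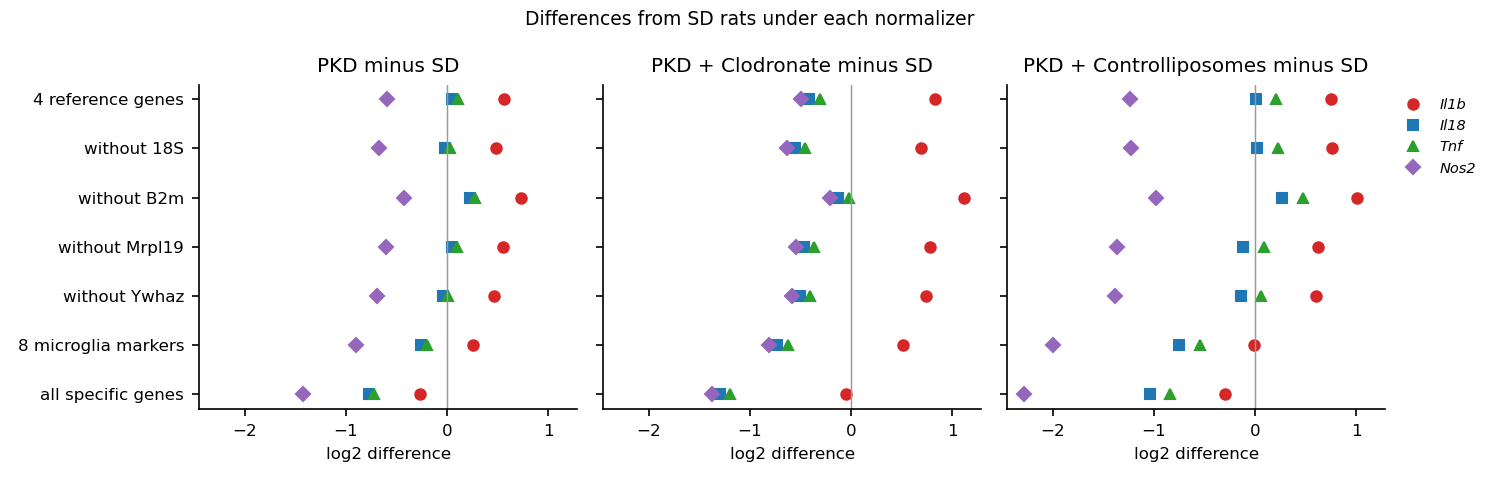
Differences from SD rats in log2 units for each gene (symbols) under 7 normalizers (rows), by PKD group. *Nos2* stays below 0 in each row, whereas *Il1b* moves from 0.83 and 0.75 with the 4 reference genes to −0.048 and −0.30 with all specific genes in the liposome groups.

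Markers of microglia and macrophages were set beside these values. Of the 8 markers, 2 passed as higher in PKD rats, 2 in PKD + Clodronate and 4 in PKD + Controlliposomes rats compared to SD, beside 34.1%, 46.3%, and 56.1% of all tested genes, and all 8 were detected in every group. With the mean of the specific genes as normalizer 0, 0, and 1 of them passed as higher and 4, 2, and 3 as lower, beside the counts over all tested genes given above for it. Their mean level per rat was −0.99 to 0.63 in SD, −0.051 to 0.49 in PKD, −0.095 to 0.67 in PKD + Clodronate and 0.43 to 1.24 in PKD + Controlliposomes rats. SD rat 1, the lowest for *Il1b*, was also the lowest for the markers, at −0.99. Relative to the mean of the 8 markers, *Il1b* was 0.52 higher in PKD + Clodronate than in SD rats (adjusted p = 0.0772) and −0.0067 different in PKD + Controlliposomes rats, while *Nos2* in the latter was at −1.99 (adjusted p = 0.0034). This normalization was chosen after the data were seen, and the part of microglial number in the values was not tested.

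Beside the mediators, 5 genes of the cards that IL-1 and TNF are known to induce were described, chosen with earlier results of these data known. Signaling by IL-1 or TNF was not measured, and whether these cytokines induced the genes here was not tested. The 5 genes do not cover all such genes, since *Nos2* itself is one. They were *Il6* and *Lcn2*, which encode an acute-phase cytokine and an iron-trapping secreted protein, *Icam1*, the adhesion molecule of endothelium and glia, *C3*, the central complement component, and *Timp1*, an inhibitor of metalloproteinases. Of these, 3 of 5 passed as higher in PKD, 4 of 5 in PKD + Clodronate and 5 of 5 in PKD + Controlliposomes compared to SD rats, beside 34.1%, 46.3%, and 56.1% of all tested genes. Their median differences were 1.06, 1.23, and 1.53, beside the medians of all tested genes given above. In PKD + Controlliposomes rats *Il6* was higher by 1.47 (adjusted p = 0.00165) and *Timp1* by 1.53 (adjusted p = 0.00194). With the mean of the specific genes as normalizer 1, 2, and 2 of the 5 passed as higher, beside 7, 9, and 8 of all 41, and 1 gene each in PKD and PKD + Clodronate rats was below 0.

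The 4 genes listed here as counteracting these mediators did not pass in any comparison with the 4 reference genes. They do not cover all such genes. *Socs3*, which encodes an inhibitor of cytokine signalling, was higher than in SD rats by 4.22 in PKD, 4.75 in PKD + Clodronate and 4.44 in PKD + Controlliposomes rats. Each of these *Socs3* differences passed in limma. The 4 listed genes were *Arg1*, the competitor of *Nos2* for arginine, *Il10* and *Tgfb1*, which encode inhibitory cytokines, and *Mrc1*, the mannose receptor of alternatively activated macrophages. Under the reference genes 0 of the 4 passed in limma in each of the 6 comparisons, where 0.0% to 63.4% of the tested genes did. *Il10* was at −0.97 in PKD + Clodronate minus PKD, the lowest difference of the 41 tested genes there. Its p was 0.0348 in limma (adjusted 0.391) and 0.0152 in the exact permutation test (adjusted 0.192). In that comparison 12.2% of the tested genes had an unadjusted limma p under 0.05. Compared to SD rats, *Arg1* was at 0.064 in PKD, −0.20 in PKD + Clodronate and −0.52 in PKD + Controlliposomes rats (limma adjusted p = 0.900, 0.566, and 0.161). With the mean of the specific genes as normalizer, all 4 were below SD in the 3 PKD groups, and 2, 2, and 4 of them passed, beside 16, 13, and 17 of the 41 tested genes that passed as lower. Without *B2m* among the reference genes, 1 of the 4 passed as higher in PKD + Clodronate than in SD rats, beside 21 of the 41 tested genes.

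The difference between a pair of genes in the same rat uses no reference gene, and was compared between groups for the 6 pairs of the 4 genes, for *Nos2* with *Arg1* and for *Tnf* with *Il10*. Each of these 48 comparisons was tested with a two-sided exact permutation test. In 8 of them the unadjusted p was under 0.05, and in 0 after Benjamini–Hochberg adjustment over all 48, where the smallest value was 0.208. The level of *Il1b* minus that of *Nos2*, set to 0 in SD rats, was 1.16 in PKD, 1.32 in PKD + Clodronate and 1.99 in PKD + Controlliposomes rats. Of all rats of the PKD groups, none had a value below 0 for this difference, which was 0.070 to 3.91, while SD rats ranged from −1.05 to 1.54. The exact permutation test against SD gave p = 0.0563, 0.0411, and 0.0216 before adjustment.

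Other differences within a rat also set *Nos2* or *Il18* apart. *Tnf* minus *Nos2* was 1.45 higher in PKD + Controlliposomes than in SD rats (exact permutation test, p = 0.0108 before adjustment), with values of 0.28 to 2.44 against −0.53 to 0.57. *Il18* minus *Nos2* was 1.24 higher in the same comparison (exact permutation test, p = 0.0130) and 0.65 higher in PKD than in SD rats (p = 0.0411). *Il1b* minus *Il18* was 1.25 higher in PKD + Clodronate than in SD rats (exact permutation test, p = 0.0130), and 0.74 higher than in uninjected PKD rats (p = 0.0216). For this last pair the clodronate-treated rats were at 0.82, 1.82, 1.62, 0.73, and 1.24 and the uninjected PKD rats at 0.039 to 0.98, so that 3 of 5 lay above every uninjected PKD rat. *Nos2* minus *Arg1* was 0.66 lower in PKD than in SD rats, at −0.66 (exact permutation test, p = 0.0476). None of these passed after adjustment.

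Across rats, the 4 genes did not vary as a unit. Deviations from the group means were correlated over all 23 rats for the 6 pairs, with permutation tests within groups and Benjamini–Hochberg adjustment over the 6. *Il18* and *Nos2* had r = 0.646 (permutation test, p = 0.0027, adjusted 0.0162) and rho = 0.678 (p = 0.00163, adjusted 0.00978). Without the 2 rats farthest from the median of *Il18* r was 0.558, and without PKD rat 1, which was lowest for both genes in its group, it was 0.550 (adjusted p = 0.0882). The other 5 pairs had r between −0.358 for *Il1b* with *Tnf* and 0.207 for *Il18* with *Tnf*, with adjusted p-values of 0.335 or above. *Il1b* had r = 0.060 with *Il18* and 0.079 with *Nos2*. Both genes of a pair share the reference genes of a rat, and r of *Il18* and *Nos2* was 0.640 without 18S and 0.592 with the mean of the specific genes (adjusted p = 0.0639).

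Within the groups of 6 rats, *Il18* and *Nos2* had r = 0.839 in SD, 0.924 in PKD and 0.660 in PKD + Controlliposomes rats (exact permutation tests, p = 0.0222, 0.00833, and 0.144, or 0.133, 0.075, and 0.425 after adjustment over 18 such relations). In SD rats both genes ranked the 6 rats in the same order. In the 5 PKD + Clodronate rats, too few for a correlation here, the rat with the lowest *Nos2* (−2.12) had the highest *Il18* (−0.14), and the other 4 kept the same order for both genes. This rat thus went against the pooled relation, which had r = 0.807 without it. In uninjected PKD rats *Il1b* and *Il18* also varied together (r = 0.949, exact permutation test, p = 0.00278, adjusted 0.05, which is not under the threshold), whereas r was −0.087 in SD and −0.143 in PKD + Controlliposomes rats. The difference between these groups' correlations was not tested.

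**Figure D5:**
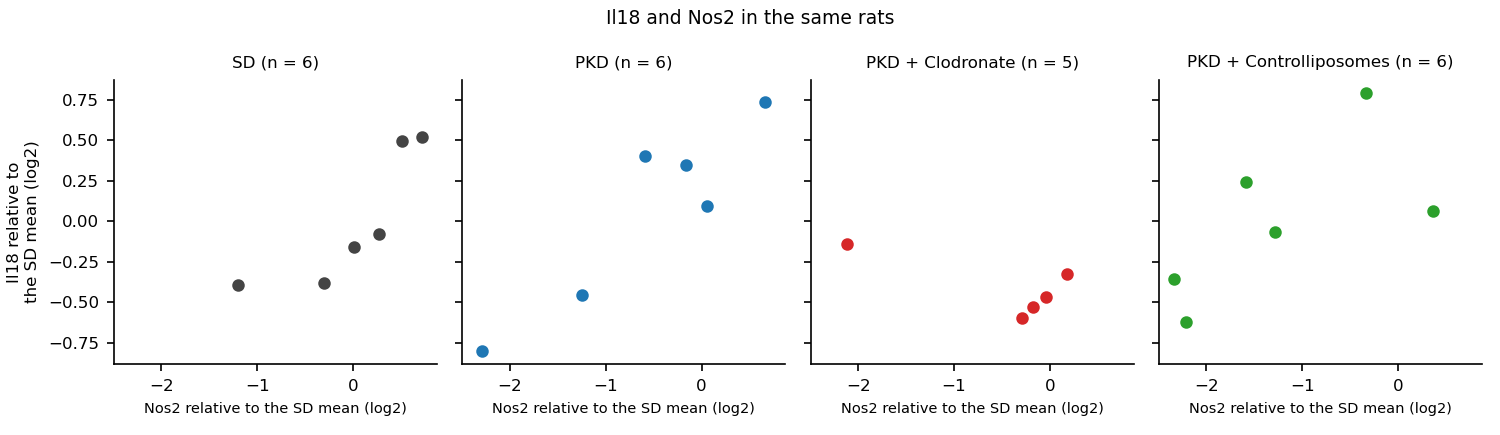
*Il18* against *Nos2* in the same rats, both in log2 units relative to the SD mean, in separate panels for each group. Points are single rats. In SD rats the order is the same for both genes, and in PKD + Clodronate rats the rat at −2.12 for *Nos2* has the highest *Il18*.

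The genes most alike to each of the 4 were found by the same deviations over 23 rats, among the 36 other specific genes with a Cq in every rat, and are given as a description. For *Il1b* they were *Mrc1* (r = 0.813), the Fc receptor gene *Fcgr2a* (0.758), and *Pgf*, which encodes placental growth factor (0.701), beside a median of 0.278 over the 36 genes. For *Nos2* they were *Arg1* (0.699), *Lgals3*, which encodes galectin-3 (0.536), and *Itgam*, which encodes the integrin CD11b (0.434), beside a median of 0.073. For *Il18* they were the Fc receptor gene *Fcgr3a* (0.618), *Lgals3* (0.537), and *Arg1* (0.511), beside a median of 0.192. For *Tnf* they were *Bdnf*, which encodes a neurotrophin (0.640), *Edn2*, which encodes endothelin-2 (0.489), and *Socs3*, which encodes an inhibitor of cytokine signalling (0.367), beside a median of 0.029. *Nos2* and *Il18* thus had *Arg1* and *Lgals3* in common, and *Il1b* shared none of its 3 with the other genes. All genes of a rat share its reference genes, and with the mean of the specific genes as normalizer r was 0.689 for *Il1b* with *Mrc1*, 0.661 for *Nos2* with *Arg1*, 0.383 for *Il18* with *Fcgr3a* and 0.736 for *Tnf* with *Bdnf*. It was 0.306 for *Il18* with *Lgals3*, 0.234 for *Tnf* with *Edn2* and 0.106 for *Tnf* with *Socs3*.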

How the data were processed

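The authors deposited Cq values (another unit than counts or intensities, in PCR cycles) for 48 wells per rat, read after 14 cycles of pre-amplification and before normalization, with at most 40 cycles. A further deposited table holds the authors' fold changes between groups and was not used. Rats were assigned to groups, and wells to genes, through the sample list and the Cq values of the paper's supplement. All 48 wells matched within 0.0001 cycles. Columns of 23 rats were used, and 11 columns were not used. Rat numbers follow that sample list, not the replicate numbers of the labels.

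Expression was the mean Cq of the 4 reference genes minus the Cq of the gene, in log2 units if each cycle doubles the product. Empty wells were left out, and the 41 genes with at least 3 Cq values per group were tested. The test was that of limma 3.58.1 under R 4.3.3, by lmFit and eBayes in a single fit of the 4 groups, with two-sided p-values adjusted after Benjamini–Hochberg across the 41 genes and a threshold of 0.05. Exact permutation tests used numpy 2.4.6 in Python 3.11.15, permutation tests of correlations 100000 resamples, and plots matplotlib 3.10.9. The procedure was tested on simulated data, in 20 sets of 40 genes per size of change, with 10 genes changed in PKD. Between PKD and SD rats, 74.5% of the genes changed by 1 log2 unit passed, and 98.0% of those changed by 2. Changes smaller than 1 log2 unit were not simulated. There was 1 well per gene and rat, copy numbers are unknown, and precision is that of 5 or 6 rats. The genes named are the 4 mediators, the 3 genes most alike to each, the listed pathway, counteracting, marker, and reference genes, and *Gfap*, *Chi3l3*, *Il13*, and *Retnla*, named after their values were seen. The members and lists were chosen with earlier results of these data known. Alternatives changed the reference genes, the treatment of empty and late wells, the genes and rats in the fit, and the test.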

Additional observations from a re-analysis of the deposited data

Results flagged for a closer look

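Each of the 4 genes was searched in each of the 4 groups, 16 sets of values in all, for a rat set apart by a gap that is large beside the spread of the set. This found 1 value, and chance gives about 0.8. *Nos2* was at −2.12 in 1 PKD + Clodronate rat, against −0.29 to 0.18 in the other 4, a gap of 0.797 of the range. The same rat had the highest *Il18* and *Tnf* values of its group, at −0.14 and 0.48, and *Il1b* at 0.59. Without it, *Nos2* in PKD + Clodronate rats differed by 0.51 from PKD, by 1.15 from PKD + Controlliposomes and by −0.083 from SD rats, and none of these passed.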

How the results depend on the processing

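Of 336 values, the 24 differences of the 4 genes under 14 alternatives that keep all rats, 294 kept their direction and side of the threshold, and 25 changed sign. A call was lost in 15 values, 3 of them with a changed sign, and gained in 10, 5 of them with a changed sign. The cause of each change was not tested beyond the setting itself. With the mean of the specific genes as normalizer, PKD minus SD was −0.26 for *Il1b*, −0.77 for *Il18*, −0.72 for *Tnf*, and −1.42 for *Nos2*. PKD + Clodronate minus SD was then −0.048, −1.30, −1.19, and −1.37 for the same genes. PKD + Controlliposomes minus SD was −0.30 for *Il1b*, −1.04 for *Il18*, and −0.84 for *Tnf*, and PKD + Controlliposomes minus PKD was −0.033 for *Il1b* and −0.12 for *Tnf*. With the mean of the 8 microglial and macrophage markers, added after the data were seen, *Il1b* was at −0.26 in PKD + Controlliposomes minus PKD, 0.52 in PKD + Clodronate minus SD and −0.0067 in PKD + Controlliposomes minus SD. *Il18* was at −0.25 in PKD minus SD, 0.023 in PKD + Clodronate minus PKD + Controlliposomes, −0.73 in PKD + Clodronate minus SD (adjusted p = 0.0374) and −0.75 in PKD + Controlliposomes minus SD (adjusted p = 0.0276). *Tnf* was at −0.20 in PKD minus SD, −0.35 in PKD + Controlliposomes minus PKD and −0.55 in PKD + Controlliposomes minus SD.

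Without 18S, *Il1b* was at −0.075 in PKD + Clodronate minus PKD + Controlliposomes, and *Il18* at −0.017 in PKD minus SD and 0.039 in PKD + Controlliposomes minus PKD. Without *B2m*, *Il18* was at 0.041 in the last comparison and *Nos2* at −0.97 in PKD + Controlliposomes minus SD (adjusted p = 0.102). Without *Mrpl19* or *Ywhaz*, PKD + Controlliposomes minus SD was 0.63 or 0.60 for *Il1b* (adjusted p = 0.0764 or 0.0758) and −0.12 or −0.14 for *Il18*. *Tnf* was at −0.016 in PKD + Controlliposomes minus PKD without *Mrpl19*, and *Il18* at −0.042 in PKD minus SD without *Ywhaz*. A fit of the compared groups kept the *Il1b* differences of 0.83 and 0.75 at adjusted p-values of 0.0522 and 0.0775. With sample weights they were 0.65 and 0.47 and *Nos2* was at −0.93, none past the threshold. The *Nos2* difference of −1.24 had an adjusted p of 0.0536 in an ordinary linear model and 0.0695 in the exact permutation test, in which the 0.75 of *Il1b* had 0.0919.

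Leaving out each rat in turn, *Il1b* ranged from 0.66 to 0.97 in PKD + Clodronate minus SD (lost without PKD + Clodronate rats 2 or 3 or SD rat 1), from 0.56 to 0.92 in PKD + Controlliposomes minus SD (lost without PKD + Controlliposomes rats 3 or 4 or SD rats 1 or 3) and from −0.082 to 0.27 in PKD + Clodronate minus PKD + Controlliposomes. *Nos2* ranged from −1.55 to −1.01 in PKD + Controlliposomes minus SD (lost without PKD + Controlliposomes rats 1, 3, 5, or 6 or SD rats 1, 3, 4, or 6) and from −0.23 to 0.51 in PKD + Clodronate minus PKD. *Il18* ranged from −0.081 to 0.23 in PKD minus SD, from −0.22 to 0.090 in PKD + Controlliposomes minus PKD and from −0.15 to 0.13 in PKD + Controlliposomes minus SD. *Tnf* ranged from −0.030 to 0.25 in PKD minus SD and from −0.031 to 0.24 in PKD + Controlliposomes minus PKD. The correlation with *Nos2* ranged from 0.550 to 0.807 for *Il18*, from −0.0085 to 0.238 for *Il1b*, and from −0.019 to 0.381 for *Tnf*, and that of *Il1b* with *Il18* from −0.104 to 0.276. With the mean of the specific genes, r was −0.074 for *Il1b* with *Il18* and −0.048 for *Il1b* with *Nos2*. No paired analysis was possible because the groups were separate rats, and the columns carry animal numbers and not the replicate numbers of the labels. Equal replicate numbers in different groups are not known to mark matched rats.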
